A study of Homo sapiens with 6 samples.

Results

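The levels of 10 markers of the glial lineage and of glioma stem cells were examined in U87 cells, an established human glioblastoma line, with or without knockdown of CHRM3, the M3 muscarinic acetylcholine receptor. The 10 genes were taken by symbol from a table of 61731 genes and loci, and all 10 were found. They comprised the neural stem cell markers NES, SOX2, MSI1 and PROM1, the transcription factors SOX4 and SOX9, the astrocyte genes GFAP and S100B, the oligodendrocyte lineage factor OLIG2, and the surface receptor CD44. There were 3 libraries of negative control cells (NC), which the labels call normal control, and 3 libraries labelled as CHRM knockdown (KD), all of total RNA. In the study, U87 cells were infected with knockdown lentivirus, and which of its 3 knockdown sequences these libraries carried is not stated. The libraries of each group are numbered, without a statement that they were separate cultures or that the KD numbers are not the knockdown sequences, so that p-values measure only the spread between these libraries. The values are TPM, the share of a library's transcripts that a gene holds once gene length is allowed for. This unit keeps no read depth, so that no detection limit is known. CHRM3 itself was 0.02, 0.09 and 0.13 TPM in NC and 0.13, 0.01 and 0.02 TPM in KD libraries. Its reduction was thus not detectable in these libraries, whose groups rest on their labels. The paper reports efficient knockdown of CHRM3 in U87 cells, without stating that these libraries came from the cells measured.

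Neural stem cells of the developing brain give rise to neurons, astrocytes and oligodendrocytes, and glioblastoma cells often keep parts of this programme. SOX2, MSI1, NES and PROM1 are widely used to mark the stem-like cells, SOX9 and OLIG2 direct glial fates, and GFAP and S100B mark astrocytes. CD44 binds hyaluronan of the extracellular matrix and is high in glioblastoma cells of the mesenchymal kind.

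RefSeq promoter windows were matched for 5 of the 10 genes, and those of CD44, NES and SOX4 are shown because the TPM of these genes differed between the groups. Each is the 250 bases before the RefSeq start site, on the strand of the gene, in GRCh38.p14. Capitals mark matches, on either strand, to the GC box (GGGCGG) or the CCAAT box (CCAAT). The windows are chr11:35138921-35139170 for CD44 (plus strand), chr1:156677408-156677657 for NES (minus strand) and chr6:21593501-21593750 for SOX4 (plus strand). The gene positions given below come from another annotation, in which CD44 starts at 35138870 and SOX4 at 21592768. By those positions the CD44 and SOX4 windows lie inside the genes. The NES window lies before its gene, whose start on the minus strand is at 156677397.
CD44: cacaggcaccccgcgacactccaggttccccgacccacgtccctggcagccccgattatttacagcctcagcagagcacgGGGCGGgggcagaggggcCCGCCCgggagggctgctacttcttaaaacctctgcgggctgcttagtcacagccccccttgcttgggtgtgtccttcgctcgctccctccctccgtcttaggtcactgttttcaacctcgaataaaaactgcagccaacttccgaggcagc
NES: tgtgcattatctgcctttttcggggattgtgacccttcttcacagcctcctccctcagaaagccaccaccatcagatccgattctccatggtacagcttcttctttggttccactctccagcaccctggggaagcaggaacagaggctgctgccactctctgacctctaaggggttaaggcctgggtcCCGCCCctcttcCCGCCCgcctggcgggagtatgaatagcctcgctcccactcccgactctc
SOX4: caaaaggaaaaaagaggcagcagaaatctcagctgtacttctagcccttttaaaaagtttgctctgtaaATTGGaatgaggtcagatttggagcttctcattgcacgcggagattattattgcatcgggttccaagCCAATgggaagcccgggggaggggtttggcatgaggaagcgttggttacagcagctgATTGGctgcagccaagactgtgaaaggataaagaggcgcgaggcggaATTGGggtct
The CD44 and NES windows each held 2 GC boxes and no CCAAT box, whereas the SOX4 window held 4 CCAAT boxes and no GC box. Of 35116 windows of the same length, 42.6% held a GC box and 32.0% a CCAAT box. A TATA box (TATAAA) or an AP-1 site (TGANTCA), present in 10.7% and 6.57% of the windows, was not matched in these 3 windows. The GC content was 62.4%, 58% and 48.8% for CD44, NES and SOX4. These are matches of letters, and binding was not measured.

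In the control cells the markers spanned a wide range of levels. CD44, on chromosome 11 from 35138870 to 35232402 (GRCh38), was by far the most abundant, with 595.37, 576.68 and 619.74 TPM in control replicates 1, 2 and 3. It ranked 233 among 19878 protein-coding genes, above 98.8% of them. NES, on chromosome 1 from 156668763 to 156677397, followed at 2.25 ± 0.281 TPM (SD, n = 3) and ranked 10530. GFAP was 1.16 ± 0.219 TPM and SOX4 was 0.76 ± 0.08 TPM (SD, n = 3 each). OLIG2 (0.417 ± 0.132 TPM) and SOX9 (0.367 ± 0.0493 TPM; SD, n = 3 each) overlapped in their ranges, and S100B was lower, at 0.123 ± 0.0231 TPM (SD, n = 3). MSI1 was listed at 0 TPM in all controls. PROM1 and SOX2 were above 0 only in control replicate 2, at 0.09 and 0.02 TPM. PROM1, SOX2 and MSI1 could therefore not be ordered. Thus 3 of the 10 markers, CD44, NES and GFAP, reached a mean of 1 TPM in the controls.

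**Figure D1:**
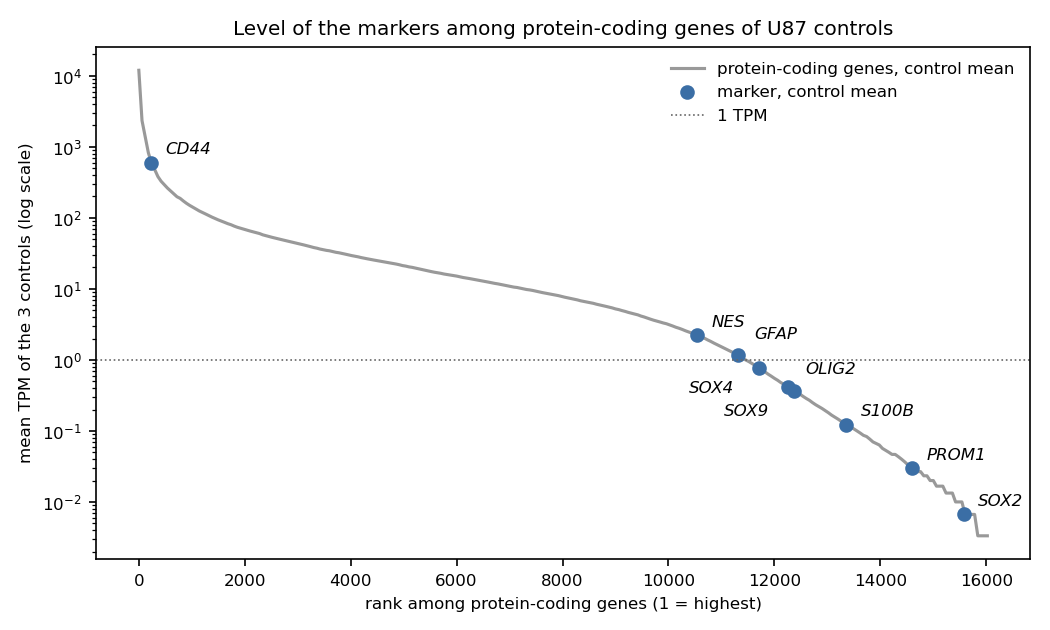
Mean TPM of the 3 control libraries (log scale) against rank for protein-coding genes (grey line), with 9 markers as blue points and 1 TPM dotted. MSI1 was listed at 0 TPM in NC and is not drawn. CD44 lies at rank 233, and the other markers lie at or below rank 10530.

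In the KD libraries CD44 and NES stayed first and second, and the order below them differed. SOX9 moved from place 6 to place 3, where its range overlapped that of GFAP. SOX4 moved from place 4 to place 6, where it overlapped OLIG2 and S100B. The 3 values of one group lay wholly above or below those of the other for 4 of the 10 markers, namely CD44, NES, SOX4 and SOX9, against 27.4% of the 30412 genes above 0 TPM in at least 1 library.

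To compare the groups, log2(TPM + 1) was fitted with limma with Benjamini-Hochberg adjustment of the p-values over all genes tested. Fold changes on this scale understate the change of genes near or below 1 TPM. The test was limited to the 13722 genes whose 6 values averaged 1 TPM or more, among them 3 of the 10 markers (CD44, NES and GFAP). By adjusted p under 0.05, 1 marker was lower in the KD libraries (CD44), against 24.0% of all tested genes, and 1 was higher (NES), against 12.1% of all tested genes. The split of all tested genes depended on the scaling, with 3295 lower and 1660 higher as deposited, 2245 lower and 2306 higher after median-of-ratios scaling, and 2229 lower and 2233 higher after quantile normalization. Neither marker reached an absolute log2 fold change of 1, a limit that 1.87% of the tested genes passed together with the adjusted p. A total of 7 markers were too low for this test and were examined in limma fits with a limit of 0.1 TPM, which 7 of the 10 markers met, or with no limit, which all 10 met. With 0.1 TPM, SOX9 and NES were higher (7.88% of 20229 genes were) and SOX4 and CD44 were lower (15.2% were). With no limit, SOX9 was higher (4.55% of 30412 genes were), SOX4 and CD44 were lower (8.71% were), and NES did not pass.

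**Figure D2:**
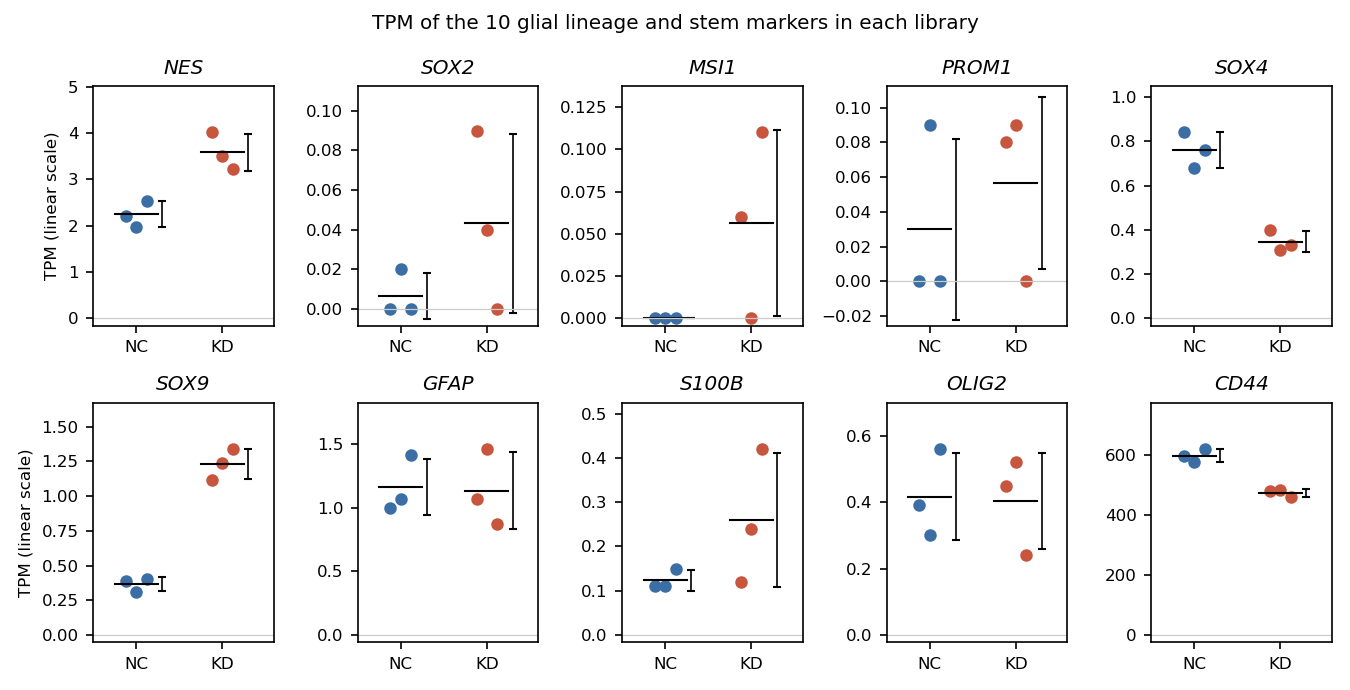
TPM of each marker (linear scale, a separate axis for each gene) in the NC (blue) and KD (red) libraries. Points are libraries, horizontal lines are means, and bars are the SD of 3 libraries, which may reach below 0. The groups do not overlap for NES, SOX4, SOX9 and CD44.

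Among the neural stem cell markers, NES encodes nestin, an intermediate filament protein of neural progenitors. NES was 2.22, 1.98 and 2.54 TPM in control replicates 1, 2 and 3, and 4.01, 3.50 and 3.23 TPM in KD replicates 1, 2 and 3. All KD libraries lay above all controls, and the mean was 1.59 times that of the controls (3.58 ± 0.396 against 2.25 ± 0.281 TPM; SD, n = 3 each). The log2 fold change was 0.50 (95% interval 0.23 to 0.76, standard error 0.112, limma adjusted p = 0.0151). With no limit on low values the same fold change had a limma adjusted p of 0.0535.

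SOX2, a transcription factor that maintains neural stem cells, was listed at 0, 0.02 and 0 TPM in NC and at 0.09, 0.04 and 0 TPM in KD libraries. MSI1, an RNA-binding protein of neural progenitors, was listed at 0 TPM in the 3 NC libraries and at 0.06, 0 and 0.11 TPM in KD libraries. PROM1, which encodes the surface antigen CD133, was listed at 0, 0.09 and 0 TPM in NC and at 0.08, 0.09 and 0 TPM in KD libraries. SOX2 lies on chromosome 3 from 181711924 to 181714436, MSI1 on chromosome 12 from 120341330 to 120369180 and PROM1 on chromosome 4 from 15963076 to 16084378. Each of the 3 genes was at 0 TPM in at least 1 library of both groups, and no change was detectable at these levels. Without a limit on low values the limma adjusted p was 0.523 for SOX2, 0.337 for MSI1 and 0.711 for PROM1, and exact two-sided permutation tests gave p = 0.40, 0.40 and 1. SOX2-OT, whose annotated transcripts overlap SOX2 on the same strand, was also low, from 0 to 0.19 TPM in NC and from 0.17 to 0.33 TPM in KD libraries.

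The SOX factors SOX9 and SOX4 differed in opposite directions. SOX9, which promotes the switch of neural progenitors to glia and lies on chromosome 17 from 72121020 to 72126420, was 0.39, 0.31 and 0.40 TPM in NC and 1.12, 1.24 and 1.34 TPM in KD libraries. The lowest KD library was well above the highest control, and the mean was 3.36 times higher (1.23 ± 0.11 against 0.367 ± 0.0493 TPM; SD, n = 3 each). The log2 fold change of TPM + 1 was 0.71 (95% interval 0.47 to 0.94) with no limit on low values, and the limma adjusted p was 0.00623, or 0.00268 with a limit of 0.1 TPM. An antisense gene that overlaps it, SOX9-AS1, stayed at or below 0.04 TPM in the 6 libraries.

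SOX4, a factor of immature neural cells that lies on chromosome 6 from 21592768 to 21598619, was 0.84, 0.68 and 0.76 TPM in the controls. It was 0.40, 0.31 and 0.33 TPM in KD libraries, all below the lowest control, and the mean was 0.456 times that of the controls. The log2 fold change was -0.39 (95% interval -0.58 to -0.19) with no limit on low values, and the limma adjusted p was 0.0287, or 0.0251 with a limit of 0.1 TPM. For NES, SOX9, SOX4 and CD44 alike, an exact two-sided permutation test of the 3 against 3 values gave p = 0.10, the smallest that this design allows.

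The astrocyte and oligodendrocyte members were not shown to differ. GFAP, the intermediate filament of mature astrocytes, lies on chromosome 17 from 44903161 to 44916937. It was 1, 1.07 and 1.41 TPM in NC and 1.07, 1.46 and 0.87 TPM in KD libraries. The range of the controls lay within that of the KD libraries, with a log2 fold change of -0.02 (95% interval -0.41 to 0.37, limma adjusted p = 0.932). GFAP is overlapped on the opposite strand by CCDC103, which was more abundant, at 5.52 to 7.95 TPM in NC and 8.96 to 11.22 TPM in KD libraries. FAM187A, on the opposite strand as well, was between 0 and 2.21 TPM in the 6 libraries. Whether the counting used strand is not stated, so that reads of the overlap cannot be assigned.

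S100B, a calcium-binding protein of astrocytes on chromosome 21 from 46598962 to 46605208, was 0.11, 0.11 and 0.15 TPM in NC and 0.12, 0.24 and 0.42 TPM in KD libraries. KD replicate 1 lay within the control range, and the limma adjusted p was 0.38 with no limit on low values (log2 fold change 0.16, 95% interval -0.06 to 0.38; exact two-sided permutation p = 0.20). OLIG2, on the same chromosome from 33025845 to 33029196, was 0.39, 0.30 and 0.56 TPM in NC and 0.45, 0.52 and 0.24 TPM in KD libraries. Its groups overlapped, with a log2 fold change of -0.01 (95% interval -0.29 to 0.26, limma adjusted p = 0.958 with no limit on low values; exact two-sided permutation p = 1).

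CD44 was the only abundant member. It was 595.37, 576.68 and 619.74 TPM in the controls, as above, and 479.84, 481.72 and 458.95 TPM in KD libraries. Every KD library was below every control, and the mean was 0.793 times that of the controls (474 ± 12.6 against 597 ± 21.6 TPM; SD, n = 3 each). The log2 fold change was -0.33 (95% interval -0.41 to -0.26, standard error 0.0324, limma adjusted p = 0.000529). It still ranked 285 among protein-coding genes in the KD libraries. The table gives 1 value per gene, and the splice forms of CD44 were not analysed here.

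**Figure D3:**
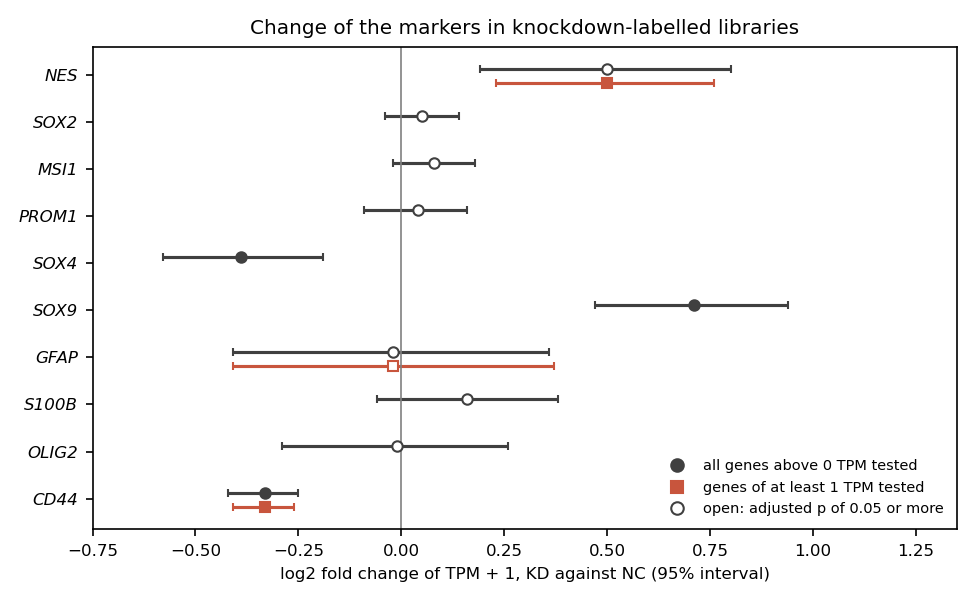
Log2 fold change of TPM + 1 for each marker, KD against NC, with 95% intervals from limma. Grey circles are from the fit with no limit on low values, red squares from the fit of genes of at least 1 TPM, and open symbols mark an adjusted p of 0.05 or more. SOX9 and SOX4 lie on opposite sides of 0, and NES passes in 1 of the 2 fits.

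To set the markers beside related genes, 12 lists of lineage and partner genes were counted, of which 154 distinct genes were found and 73 were tested. Of these 73 genes, 30 were higher and 24 were lower, with a median log2 fold change of 0.05 against -0.06 over all tested genes. Among all tested genes 12.1% were higher and 24.0% were lower as deposited, a split that depended on the scaling. Each list count below is to be read against these shares, which are not repeated. With a limit of 5 TPM, 1487 genes were higher and 3005 lower of 9806 tested. The lists were chosen with earlier results of these data known. Several genes stand in more than 1 list.

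Of 18 further neural stem and progenitor genes, 7 were tested, with 2 higher and 3 lower. PAX6, a transcription factor of radial glia, fell from 18.2 ± 1.18 to 12 ± 1.37 TPM (SD, n = 3 each; log2 fold change -0.57). SLC1A3, a glial glutamate transporter, fell by 0.56 on the log2 scale and the receptor NOTCH1 fell by 0.35. VIM, the vimentin filament that nestin assembles with, was 6574 ± 77.2 TPM in NC and 7376 ± 115 TPM in KD libraries (SD, n = 3 each; limma adjusted p = 0.000416). VIM was the only 1 of 8 further intermediate filament genes that was tested, and its call was lost with quantile normalization (limma adjusted p = 0.0615). HES1, a Notch target, passed with a limma adjusted p of 0.0425 (log2 fold change 0.36), a call that was lost in each of the 6 fits that left out 1 library (adjusted p 0.0564 to 0.116). SOX1, SOX3, HES5 and NR2E1 were listed at 0 TPM in all 6 libraries.

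Of the 16 other SOX genes, 3 were tested and none passed, with 1 at an unadjusted limma p under 0.05. SOX12, the most abundant of them, was 6.24 ± 0.28 TPM in NC and 7.13 ± 0.0656 TPM in KD libraries (SD, n = 3 each; limma adjusted p = 0.0632). It passed after quantile normalization and after median-of-ratios scaling. Of 15 surface and pluripotency genes used for glioma stem cells, 5 were tested, with 3 higher and 2 lower. ALDH1A3, an aldehyde dehydrogenase of mesenchymal glioma stem cells, fell from 303 ± 4.89 to 165 ± 5.14 TPM (SD, n = 3 each; log2 fold change -0.87, limma adjusted p = 7.41e-06), and CD109 fell by 0.32 on the log2 scale. EPHA2 rose by 0.36. KLF4 had a log2 fold change of 0.50 and MYC of 0.15. The KLF4 call was lost in 5 of the 6 fits that left out 1 library, all but the fit without control replicate 1 (limma adjusted p 0.0502 to 0.0684), and the MYC call in all 6 (0.0518 to 0.113).

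Of 20 further astrocyte genes, 10 were tested, with 4 higher and 5 lower (median log2 fold change -0.20). GLUL, the glutamine synthetase of astrocytes, fell from 64.4 ± 0.937 to 37.0 ± 1.67 TPM and NDRG2 from 3.14 ± 0.795 to 1.02 ± 0.42 TPM (SD, n = 3 each; limma adjusted p = 4.02e-05 and 0.00994). The matrix protein TNC, the most abundant of the list, fell by 0.30 on the log2 scale. ALDOC, the brain aldolase, rose from 14.8 ± 0.419 to 26.8 ± 0.535 TPM, the gliogenic factor NFIB from 0.93 ± 0.0624 to 2.18 ± 0.299 TPM, and the gap junction gene GJA1 from 87.2 ± 1.48 to 119 ± 2.15 TPM (SD, n = 3 each). NFIB was below 1 TPM on average in the controls and entered the test through its KD values. Among untested astrocyte markers, AQP4 was listed at 0 TPM in all 6 libraries and ALDH1L1 was above 0 in 1 library, at 0.01 TPM.

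For the oligodendrocyte lineage, 17 genes were found and 4 were tested, with 2 lower and none higher. CSPG4, the NG2 proteoglycan of precursors, was 28.9 ± 0.656 TPM in NC and 24.9 ± 0.61 TPM in KD libraries (SD, n = 3 each; log2 fold change -0.20), and UGT8 fell by 0.24, a call that was lost with quantile normalization (limma adjusted p = 0.0673). CNP, the most abundant, had a log2 fold change of 0.01. OLIG1 and SOX10, partners of OLIG2 in this lineage, were listed at 0 TPM in all 6 libraries. Of 12 neuronal genes, 4 were tested and all 4 were higher. TUBB3, the neuronal beta tubulin, rose from 258 ± 1.08 to 403 ± 11 TPM (SD, n = 3 each; limma adjusted p = 1.18e-05), ENO2 rose by 0.60 on the log2 scale, MAP2 by 0.77 and SNAP25 by 0.47. DCX stayed at or below 0.02 TPM and RBFOX3 at or below 0.15 TPM, and STMN2 and ELAVL4 were listed at 0 TPM in all 6 libraries.

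**Figure D4:**
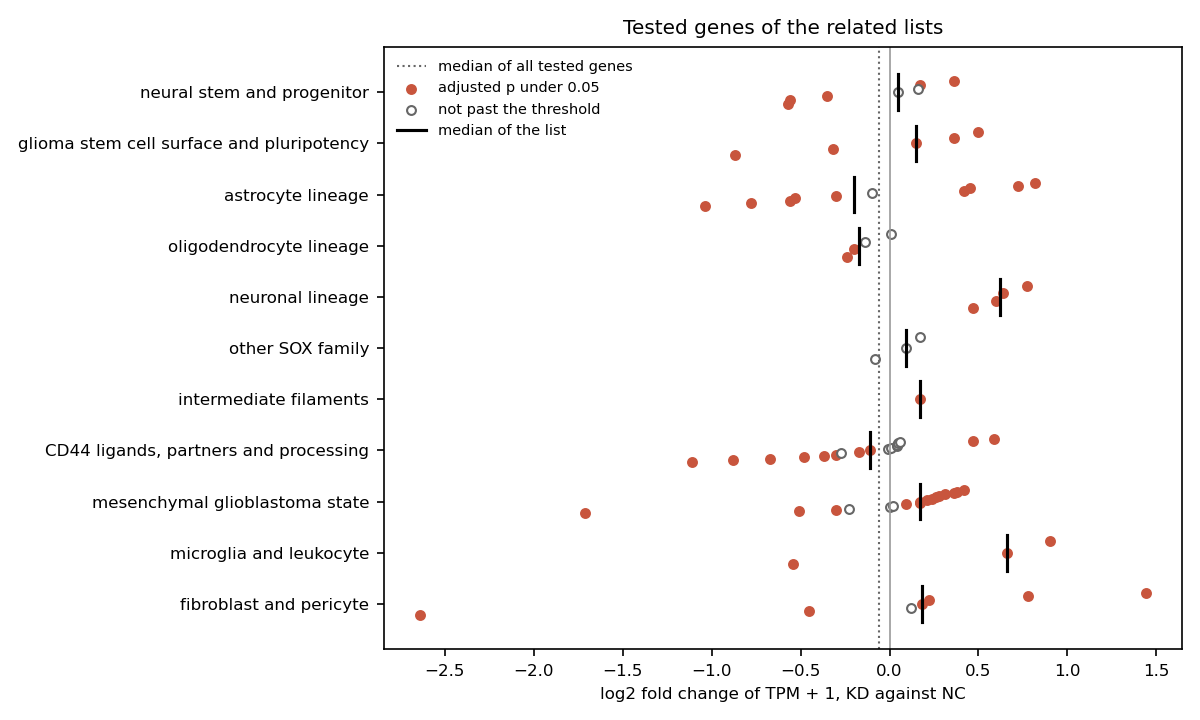
Log2 fold change of TPM + 1, KD against NC, of the tested genes of 11 lists. Red points passed an adjusted p of 0.05, open points did not, black bars are list medians and the dotted line is the median of all tested genes (-0.06). The 4 neuronal genes lie above 0, and most CD44 partner genes that passed lie below 0.

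Of 20 genes that make or bind the ligands of CD44, link it to the cytoskeleton or cleave it, 17 were tested, with 8 lower and 2 higher (median log2 fold change -0.11). HAS2, which synthesizes hyaluronan, fell from 10.3 ± 0.167 to 4.24 ± 0.256 TPM (SD, n = 3 each; log2 fold change -1.11, limma adjusted p = 5.96e-05). HAS1, another hyaluronan synthase, rose from 1.67 ± 0.1 to 3.05 ± 0.38 TPM. The CD44 ligand SPP1, or osteopontin, fell from 566 ± 12.3 to 355 ± 1.29 TPM and the proteoglycan SRGN from 76.0 ± 4.69 to 40.8 ± 2.21 TPM (SD, n = 3 each). CEMIP, which takes part in hyaluronan breakdown, had a log2 fold change of 0.47, and its call was lost in 4 of the 6 fits that left out 1 library, namely control replicate 1 or 3 or KD replicate 2 or 3 (limma adjusted p 0.0521 to 0.0902). ADAM17, a protease that cleaves surface proteins and 1 of the 8 lower genes (log2 fold change -0.37), lost its call without control replicate 1 or 2 or KD replicate 2 or 3 (limma adjusted p 0.0662 to 0.0898). The ADAM17 call was also lost with median-of-ratios scaling and with quantile normalization (limma adjusted p 0.0635 and 0.0583). With median-of-ratios scaling 6 genes of this list were lower and 2 higher.

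CD44 is itself counted among the markers of mesenchymal glioblastoma cells, and of 17 further genes of that state all were tested, with 11 higher and 3 lower (median log2 fold change 0.17). LGALS1 rose from 6577 ± 77.6 to 8578 ± 165 TPM, TGFBI from 3845 ± 9.69 to 4929 ± 41.5 TPM and CHI3L1 from 32.5 ± 0.701 to 43.9 ± 1.26 TPM (SD, n = 3 each). TIMP1 fell by 1.71 and TNC by 0.30 on the log2 scale. With quantile normalization 10 genes were higher and 3 lower.

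Markers of other cell types were also measured. Of 9 microglia and leukocyte markers, 3 were tested: CD68 fell by 0.54 on the log2 scale, and CSF1R and TMEM119 rose by 0.66 and 0.90. TMEM119 averaged 0.843 TPM in the controls and entered the test through its KD values. Their summed level was 255 to 259.9 TPM in NC and 182 to 188 TPM in KD libraries, most of it CD68, and TYROBP was at 0 TPM in each library. No endothelial marker of 5 was tested, and their summed level stayed at or below 0.31 TPM in every library. Of 8 fibroblast and pericyte markers, 7 were tested, with 4 higher and 2 lower, and their summed level was 796 to 819 TPM in NC and 934 to 964 TPM in KD libraries. ACTA2, the smooth muscle actin, rose from 57.6 ± 2.38 to 158 ± 4.39 TPM, and PDGFRB and COL1A2 rose by 0.78 and 0.22 on the log2 scale. DCN, or decorin, fell from 61.2 ± 1.86 to 9.09 ± 1.75 TPM (SD, n = 3 each), and LUM fell by 0.45. The libraries are labelled as U87 cells, an established line, and these values do not count cell types. Whether other cell types were present was not tested. The part of these genes in the differences of the 10 markers was not tested. In bulk RNA, fewer cells with a transcript and less of it per cell cannot be told apart.

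The protein-coding genes whose profiles over the 6 libraries lay closest to NES were P2RX6 and DGKD, with root-mean-square differences of 0.0287 and 0.0511 on the centred log2 scale. For CD44 they were the proteasome subunit gene PSMA4 and NOTCH1 (0.0137 and 0.0157). PSMA4 was 476 TPM in NC and 378 TPM in KD libraries on average, a level near that of CD44, whereas NOTCH1 was 4.83 and 3.57 TPM.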

How the data were processed

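RNA of 3 negative control and 3 CHRM3 knockdown-labelled U87 libraries was sequenced as read pairs; the paper and the labels name different extraction and library kits. The authors deposited TPM per gene and library in 1 table, rounded to 2 decimals. The labels name fastp, RSEM and the build GRCh38.p13, without their roles, and the aligner and annotation are not given in the sources used here. TPM is a share, so that abundant genes that change move all others, and its depth is unknown. Symbols came from a table of gene names (61369 of 61541 Ensembl identifiers matched), and positions and gene types from GENCODE 29.

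log2(TPM + 1) was fitted with limma 3.58.1 in R 4.3.3 (lmFit, eBayes with trend, group as the only term) on genes averaging 1 TPM or more, with Benjamini-Hochberg adjustment at 0.05. The fit was tested on simulated data, only for genes averaging 1 TPM or more and for absolute log2 fold changes of 1. The fits with lower limits were not tested in this way. Intervals are at 95%. Values of single genes were also compared by exact permutation. Alternatives varied the pseudocount, the limit, the scaling, the trend, a block and the libraries. Members and lists were chosen with earlier results of these data known. Text names all members, CHRM3, the 3 largest rises and falls past the threshold and the most abundant gene of each list, some overlapping genes and the 2 nearest profiles. Overlapping genes that are not named stayed at or below 0.53 TPM in every library. A list gene that the rule would name is not reported here. Other untested markers are named only for their low levels.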

Additional observations from a re-analysis of the deposited data

How the results depend on the processing

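The fall of CD44 kept its direction and its call in all 18 alternatives (log2 fold change -0.36 to -0.26, limma adjusted p 0.00015 to 0.00742). The rise of NES kept its direction in the 17 alternatives that tested it (0.43 to 0.65, limma adjusted p 0.00712 to 0.0535) and lost its call with no limit on low values. GFAP passed in none, and its log2 fold change became 0.0145 with median-of-ratios scaling, 0.0458 with quantile normalization, 0.059 without control replicate 3 and 0.0679 without KD replicate 3 (-0.1299 to 0.0679 over the fits that left out 1 library). Among the markers, 2 were higher and 2 lower with a limit of 0.1 TPM, also with a pseudocount of 0.1 added, 2 were lower with no limit, and 0 were higher with a limit of 5 TPM, where CD44 alone was tested. With 1 library left out, 1 was higher and 1 lower in every fit, among the markers that reached 1 TPM. SOX9 and SOX4 lay below that limit. They were not tested with 1 library left out, with another scaling, without the trend or with the block. With pseudocount and limit both at 0.1 TPM, their log2 fold changes were 1.52 and -0.95 (limma adjusted p 0.00334 and 0.0329).

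The 256 genes past both limits became 399 with a pseudocount of 0.1, 145 with a limit of 5 TPM, 159 with protein-coding genes only (both test fewer genes), 609 with pseudocount and limit both at 0.1 TPM, and 236 to 261 with 1 library left out. By adjusted p alone, 1679 genes were higher and 3316 lower with a pseudocount of 0.1, against 1660 and 3295. What moved the counts past both limits with the smaller pseudocount was not tested. Among related genes, ADAM17, CEMIP, HES1, KLF4 and MYC lost their calls with no limit on low values (limma adjusted p 0.0688 to 0.124). The protein-coding restriction and the joint change were chosen after seeing the data. Median-of-ratios scaling and quantile normalization moved the median log2 fold change of all tested genes from -0.06 to 0.00. Deviations of same-numbered libraries had correlations near 0 (-0.0198, 0.0341 and 0.0334), and those of differently numbered libraries were from -0.0656 to 0.0336. A pairing by number was neither shown nor excluded by these values. With the replicate block, 1369 genes were higher and 2638 lower, against 1660 and 3295, the limma adjusted p of NES was 0.0472, that of CD44 0.00742 and that of NOTCH1 0.0508, and 257 genes passed both limits. TPM of 2 decimals and unknown depth limit what can be said of SOX2, MSI1 and PROM1.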

Other observations

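CD24, a surface antigen of the glioma stem cell list, was chosen here after its values were seen. It was 0.02, 0.09 and 0.23 TPM in NC and 2.02, 1.52 and 1.90 TPM in KD libraries, all above the controls. Its mean over the 6 libraries was below 1 TPM, so that it was not among the tested genes of the list.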
